A study of Mus musculus with 4 samples.

Results

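An exon can be left out of an mRNA when the splicing machinery joins the exon before it directly to the exon after it. The deposited junction tables mark each exon-exon junction as known or putative, and 1147 putative junctions in 998 genes were taken here as unannotated in-frame single-exon skips. Each starts and ends at the ends of known junctions of its gene, passes over exactly 1 known exon whose length is a multiple of 3, and had at least 5 reads over the 4 libraries. The members were thus chosen by their skipping reads, summed over both genotypes, beside their structure. They were drawn from 62809 putative junctions with a read, among 188794 junctions of any kind with a read. The same rule with an exon length that is no multiple of 3 gave 1684 frame-shifting skips, and 643 junctions already marked as known skipped 1 exon.

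The RNA came from total thymocytes, the developing T cells of the thymus, of 2 wild-type mice and 2 hnRNP L knockout (KO) mice, with 1 library per mouse. All 4 mice share 1 label for a mixed background, which names CD45.1, C57BL/6, an LckCre transgene (Cre under the Lck promoter, active in developing T cells) and the fluorescent reporter Gt(ROSA)26Sortm4(ACTB-tdTomato,-EGFP)Luo. The sources used here do not state which mice carried Cre, the deleted part of Hnrnpl, or the age and sex of the mice. The study asked how hnRNP L acts on splicing and on T cell development.

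Removing an exon whose length is a multiple of 3 keeps the codons after it in phase, so the mRNA can still give a shorter protein with the same end. An exon of another length shifts the frame and usually brings in an early stop codon, and such mRNAs are often destroyed by nonsense-mediated decay. hnRNP L is an RNA-binding protein that prefers CA-rich RNA and can promote or block the use of an exon. Its textbook case in T cells is the skipping of the variable exons of Ptprc, which encodes the phosphatase CD45.

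The exons below carry the results that follow. Capitals mark exon bases and lower case marks the 12 bases on either side in the spliced transcript, from GENCODE M21 transcripts on GRCm38, 5′ to 3′. The joint of Cd8b1 is shown because its skip was the only one to pass the test between genotypes. Its exon 2 of 6, of 363 nt, lies at chr6:71325986-71326348 on the plus strand, and the capitals in the joint mark the codon that forms where exons 1 and 3 meet, while the line after it has the last 12 bases of exon 1 and the first 60 bases of exon 2.
Cd8b1 joint: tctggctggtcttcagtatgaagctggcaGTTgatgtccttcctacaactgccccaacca
Cd8b1 start of exon 2: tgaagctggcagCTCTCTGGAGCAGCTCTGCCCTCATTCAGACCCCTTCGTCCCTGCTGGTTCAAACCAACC

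The next exons are shown for the differences in level between genotypes described below, none of which passed the test. They are exon 5 of 7 of Fgfr1op2 (114 nt, chr6:146592634-146592747, plus strand), exon 20 of 28 of Usp48 (54 nt, chr4:137636934-137636987, plus strand) and exon 35 of 37 of Chd8 (180 nt, chr14:52202144-52202323, minus strand).
Fgfr1op2: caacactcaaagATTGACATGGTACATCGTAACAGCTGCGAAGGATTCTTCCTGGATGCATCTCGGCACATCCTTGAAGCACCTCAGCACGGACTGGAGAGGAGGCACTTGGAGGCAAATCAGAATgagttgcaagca
Usp48: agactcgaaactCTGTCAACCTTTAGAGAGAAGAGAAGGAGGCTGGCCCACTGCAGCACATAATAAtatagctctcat
Chd8: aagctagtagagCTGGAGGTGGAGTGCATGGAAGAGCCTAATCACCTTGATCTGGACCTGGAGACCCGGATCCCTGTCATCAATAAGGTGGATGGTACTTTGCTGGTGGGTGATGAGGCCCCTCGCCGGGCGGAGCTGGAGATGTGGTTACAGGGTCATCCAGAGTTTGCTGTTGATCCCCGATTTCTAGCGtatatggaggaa

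A further 4 exons were skipped in most mRNA of every library and are among the 10 members with the most reads. They are exon 5 of 10 of Tcf7 (93 nt, chr11:52258853-52258945, minus strand), exon 3 of 10 of Cd47 (63 nt, chr16:49869018-49869080, plus strand), exon 15 of 21 of Tcf12 (72 nt, chr9:71868999-71869070, minus strand) and exon 9 of 12 of Mef2a (24 nt, chr7:67244521-67244544, minus strand).
Tcf7: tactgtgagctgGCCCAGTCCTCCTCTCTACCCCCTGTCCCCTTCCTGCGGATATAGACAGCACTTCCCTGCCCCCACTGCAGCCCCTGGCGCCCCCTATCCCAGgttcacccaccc
Cd47: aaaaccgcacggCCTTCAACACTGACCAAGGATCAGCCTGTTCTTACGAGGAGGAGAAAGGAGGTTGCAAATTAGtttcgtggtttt
Tcf12: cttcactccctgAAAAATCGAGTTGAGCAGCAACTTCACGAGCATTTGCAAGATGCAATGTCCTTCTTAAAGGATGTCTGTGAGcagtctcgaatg
Mef2a: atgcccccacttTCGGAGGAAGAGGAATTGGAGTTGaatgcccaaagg

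The last 3 show how short a skipped exon can be. They are exon 90 of 98 of Macf1 (12 nt, chr4:123368821-123368832, minus strand), exon 45 of 64 of Atm (9 nt, chr9:53461112-53461120, minus strand) and exon 6 of 12 of Lat (30 nt, chr7:126368186-126368215, minus strand). None of these 11 exons holds ACACA or CACAC on the transcript strand, the CA-rich letters searched. That says only that these letters are not in these exons, and the introns were not searched. Other exons named below do hold them. Among those are the 129, 141 and 159 nt exons of Ptprc, the 90 nt exon of Ubn1, the 63 nt exon of Macf1, and the exons of Dnajc6 and Mbd4. Any relation of these letters to the genotypes was not tested.
Macf1: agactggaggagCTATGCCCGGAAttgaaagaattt
Atm: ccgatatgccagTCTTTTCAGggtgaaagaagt
Lat: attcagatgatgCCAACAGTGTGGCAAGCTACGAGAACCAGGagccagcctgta

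Facts of the libraries bear on what follows. Wild-type replicates 1 and 2 held 4759678 and 6146421 junction reads and the KO libraries were shallower, at 3302915 and 3515308. The targeted gene Hnrnpl had 156 and 158 RPKM (reads scaled by transcript length and mapped reads) in the wild types, against 87.2 and 39.9 in the KOs, which are 55.6% and 25.5% of the wild-type mean. Sex differs within the KO group, since Ddx3y, which is Y-linked, had 4116 reads in KO replicate 1 and at most 17 elsewhere, and Xist had 222 reads there and at least 57852 elsewhere. The summed RPKM of 10 thymocyte markers ran from 1811 to 2208, that of 5 B cell markers from 9.53 to 10.6, and that of 5 myeloid markers from 36.0 to 39.8, with none of these at 0 reads. The sum of 4 erythroid markers was 128 in KO replicate 1 and 25.5 to 41.4 in the other libraries, and that of 6 thymic epithelium markers was 8.84 in KO replicate 2 and 4.44 to 5.09 in the others. KO replicate 2 also had the lowest thymocyte sum, 1811 against 2105 or more. Their part in the results was not tested. The labels call each sample a mouse and give nothing more on it, and in total thymocytes a shift in the mix of cell stages and a change within cells cannot be told apart.

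The in-frame skips took a similar share of the junction reads in each library. They had 12214 and 16774 skipping reads in the wild types against 8723 and 9615 in the KOs. Per 1000000 junction reads these are 2566, 2729, 2641 and 2735, so the genotypes overlap. The 4 libraries together gave 47326 skipping reads, and 79 members with at least 100 reads held 59.5% of them. The median member had 11 reads. Of the 1147 members, 584 had a read in all 4 libraries and 39 in 1 library only. The genes did not each give 1 member, since 128 genes hold more than 1 and the largest number in a gene is 4.

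Read support was low at the edge of the rule. There were 281 in-frame skips with 4 reads and 179 with 5 reads, with a median of 3.24% and 4.098% skipped. Percent skipped is the skipping reads over the skipping reads plus the mean of the 2 inclusion junctions' reads.

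The most heavily used unannotated skips were mostly in-frame. Of the 159907 possible unannotated single-exon skips in the known gene structures, 39.97% would pass over an exon of a multiple of 3. Among skips with 5 to 9 reads the in-frame share was 35.6% (502 of 1410), and among those with 10 to 19 reads it was 36.8% (265 of 720). It was 48.6% at 20 to 49 reads, 57.6% at 50 to 99, 65.6% at 100 to 199, and 84.1% at 200 or more (37 of 44, exact 95% interval 69.9% to 93.4%). The rule used reads and length, so this is a description of the set and was not tested. The level of skipping showed the same order at its top end. In-frame exons were 34.4% to 37.1% of unannotated skips at levels up to 10%, 41.2% at 10% to 25%, 44.2% at 25% to 50%, and 73.4% (69 of 94) at 50% or more. A split by reads also follows how strongly a gene is expressed. The split by level holds only exons with 10 or more reads in each library and 5 or more for inclusion and for skipping. It thus depends on read depth too, and it leaves out exons with no inclusion read.

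**Figure D1:**
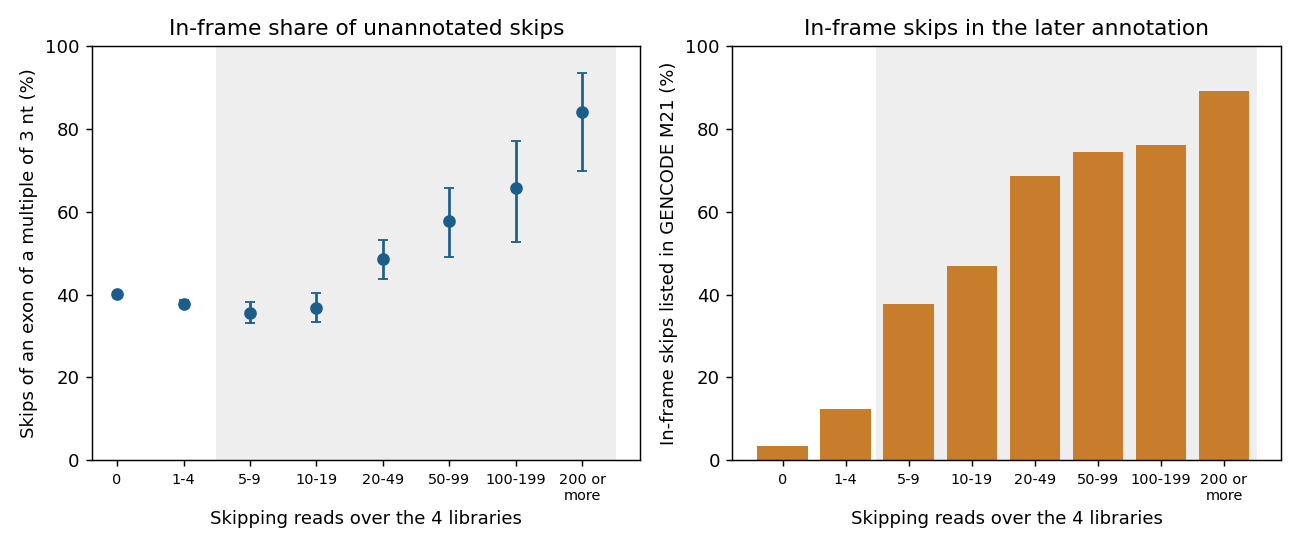
Left, the share of unannotated single-exon skips whose exon is a multiple of 3 nt, by the number of skipping reads over the 4 libraries, with exact 95% intervals. Right, the share of the in-frame skips that GENCODE M21 lists. Shading marks the counts the rule accepts; the in-frame share goes from 35.6% at 5 to 9 reads to 84.1% at 200 or more.

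Many of these junctions stand in a later annotation. GENCODE M21, a gene annotation made after these files, could be matched to 1141 of the 1147 exons by the lengths of the exon and both flanking introns. It lists the skip for 586 of them, or 51.4%, against 40.2% of the frame-shifting skips and 3.99% of in-frame skips that were possible but had fewer than 5 reads. The listed share was 37.7% at 5 to 9 reads and 89.2% at 200 or more. A protein-coding transcript with the skip is listed for 44.96% of members against 13.8% of frame-shifting skips. Transcripts labelled for nonsense-mediated decay hold the skip for 5.61% of members and 17.3% of frame-shifting skips. Of the tested and matched members skipped above 50%, M21 lists 59 of 67, and of those under 5% it lists 80 of 349. The skips of Tcf7 and of Cd8b1 exon 2 are not among those listed.

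The skipped exons were mostly inside the coding sequence, though less often than in-frame exons whose possible skip had fewer than 5 reads. Of those possible skips 95.1% were wholly coding, as were 87.5% of frame-shifting and 71.6% of known skips. The 5′ UTR held 3.42% of members against 0.798% of the possible skips, 4.37% of frame-shifting and 15.4% of known skips. By M21, 1029 members (90.2%) were wholly coding, 39 lay in the 5′ UTR and 1 in the 3′ UTR. A further 47 held the start codon, 13 held the stop codon and 12 lay in no coding transcript. Of 1027 coding exons that could be read through, the new joint formed a stop codon in 2, in Ercc8, a DNA repair factor, and Osgepl1, a tRNA-modifying enzyme. Of 1458 frame-shifting coding exons, a new stop codon followed the skip in 1415. The median in-frame exon encoded 34 residues, or 4.98% of the protein. The joint fell between codons in 540 of the 1027 (52.6%), against 57.4% for possible in-frame skips with fewer than 5 reads.

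Members were somewhat shorter and had longer flanking introns than in-frame exons whose possible skip had fewer than 5 reads. The frame-shifting and known skips shared both traits. The median exon was 102 nt, with quartiles of 69 and 144 nt and a whole range of 9 to 2130 nt, against a median of 123 nt for possible in-frame skips with fewer than 5 reads. Exons of 51 nt or less, called microexons, made up 12.1% (139), against 8.02% of frame-shifting skips, 22.6% of known skips and 5.52% of the possible ones. The median introns before and after were 1835 and 1737 nt, against 1290 and 1196 nt. Frame-shifting skips had a median exon of 109 nt and median introns of 1947.5 and 1722 nt. Known skips had 90 nt, and 1793 and 1930 nt. GC content had a median of 49.02%, against 51.1% in the possible skips, 47.8% in frame-shifting skips and 50% in known skips. The last base of the exon was G in 80.3%, against 81.0% in the possible skips. Among exons of 90 to 150 nt, ACACA or CACAC occurred in 17.2% of members (76 of 442), in 17.7% of frame-shifting skips and in 17.3% of possible ones, so the members' share was near that of exons in general. It occurred in 23.0% of known skips. The 2 motifs overlap and were counted once per exon, on the transcript strand.

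How often the exon was skipped could be compared for 830 members, which had 10 or more reads in each library and 5 or more for inclusion and for skipping. The other 317 fell short of 1 of these minimums, some because the exon had almost no inclusion reads. The median tested member was skipped at 6.30% over the 4 libraries, with 349 (42.0%) under 5% and 68 (8.19%) above 50%. Frame-shifting skips had a median of 5.25% and 1.91% of them were above 50%, while known skips had a median of 54.7%. The median by library was 6.06% and 6.23% in the wild types against 5.33% and 5.20% in the KOs. A further 53 of the 1147 members had no inclusion read in any library, 13 of them with at least 50 skipping reads.

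Transcription factors of the T lineage had some of the most heavily read skips. Tcf7 encodes TCF-1, a factor that starts and keeps the T cell program, and its 93 nt exon (31 of 303 residues, mm9 chr11:52072355-52072447) was skipped by 1420 and 2394 reads in the wild types against 1291 and 1638 in the KOs. Its percent skipped was 82.8% and 84.2% in the wild types against 82.3% and 89.7% in the KOs, and the genotypes overlap. The difference did not pass the edgeR test (log2 odds ratio 0.32, SE 0.54, adjusted p = 0.965). Tcf12 encodes HEB, an E protein needed for early thymocytes, and its 72 nt exon was skipped at 86.2%, 87.2%, 79.5% and 80.1% in wild-type replicates 1 and 2 and KO replicates 1 and 2. Both KOs were below both wild types, and the difference did not pass (log2 odds ratio -0.74, SE 0.68, adjusted p = 0.914). Mef2a, a MADS-box factor first known from muscle, left out its 24 nt exon at 99.3% to 100% in the 4 libraries, with at most 1.5 mean inclusion reads in any of them.

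Cell surface and cytoskeletal genes were also among the 10 with the most reads. Cd47 encodes an integrin-associated surface protein that protects cells from phagocytosis. Its 63 nt exon 3 had 548, 694, 381 and 342 skipping reads and was skipped at 84.0% and 81.3% in the wild types against at 73.3% and 65.4% in the KOs. The means of 82.7 ± 1.97% and 69.4 ± 5.62% (SD, n = 2 each) do not overlap in their libraries, and the edgeR test was not passed (log2 odds ratio -1.07, SE 0.59, adjusted p = 0.732). A 63 nt exon of Macf1, a linker of actin and microtubules, was skipped at 91.7%, 89.2%, 92.7% and 87.7%. The chromatin-binding gene Ubn1 gave a pair of such skips, its 90 nt exon 18 at 65.3%, 64.4%, 61.9% and 63.01%, and its 114 nt exon 2 in the 5′ UTR at 94.5% to 100%. Adrbk1, a kinase of G protein-coupled receptors, left out a 72 nt exon in its 5′ UTR with 403, 399, 274 and 253 reads, at 99.9% or more. Ip6k2, an inositol phosphate kinase, left out a 69 nt exon at 97.8% to 100%. Nap1l4, a histone chaperone, skipped a 36 nt exon at 73.8%, 71.5%, 77.2% and 75%. Both KOs were above both wild types for Nap1l4 (edgeR adjusted p = 0.987) and below for the 90 nt exon of Ubn1 (0.994), and the genotypes overlap for Macf1, Ip6k2 and the 114 nt exon of Ubn1.

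Several very short exons gave no inclusion read at all. Atm, the kinase that signals DNA breaks, left out a 9 nt exon with 109 and 130 reads in the wild types against 66 and 97 in the KOs. The 12 nt exon of Macf1 was passed over by 80, 147, 89 and 51 reads. Among the 53 members at 100%, those with the next most reads were in Vav2 (87 nt), Lrp2 (129 nt), an endocytic receptor of epithelia, Ppfia1 (30 nt), Prdm10 (36 nt), 1110037F02Rik (150 nt), Agap2 (60 nt), Plekha5 (189 nt) and Scrib (75 nt), a cell polarity protein. Microexons are known chiefly from neurons, where they are included. At these depths inclusion of the exons named here was not detectable in thymocytes, and a library with 0 inclusion reads allows up to 3. Of these exons, those of Atm, Macf1, Ppfia1 and Prdm10 have 51 nt or less, and the others are longer. Some other short members were mostly included, among them the 30 nt exon of Lat described below.

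In some members the host gene had few other junction reads. The skip of Lrp2 had 12, 88, 23 and 73 reads, while all its known junctions had 14 reads together. In 8 members the skipping reads exceeded all known junction reads of the gene, and 3 of these had at least 50 skipping reads, in Lrp2, Pwwp2a and Zbtb34. Whether such reads come from those genes was not tested.

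Percent skipped was close between libraries in the well-read members. In the 305 members with at least 50 reads in every library, it correlated at r = 0.985 between the wild types and 0.977 between the KOs. Wild-type replicate 2 and KO replicate 1 gave 0.976, and wild-type replicate 1 and KO replicate 2 gave 0.962. These correlations are across exons that share libraries, and are descriptions. The median absolute difference was 1.57 percentage points between the wild types, 1.67 between the KOs, 1.62 for wild-type replicate 2 against KO replicate 1, and 1.86 for wild-type replicate 1 against KO replicate 2.

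**Figure D2:**
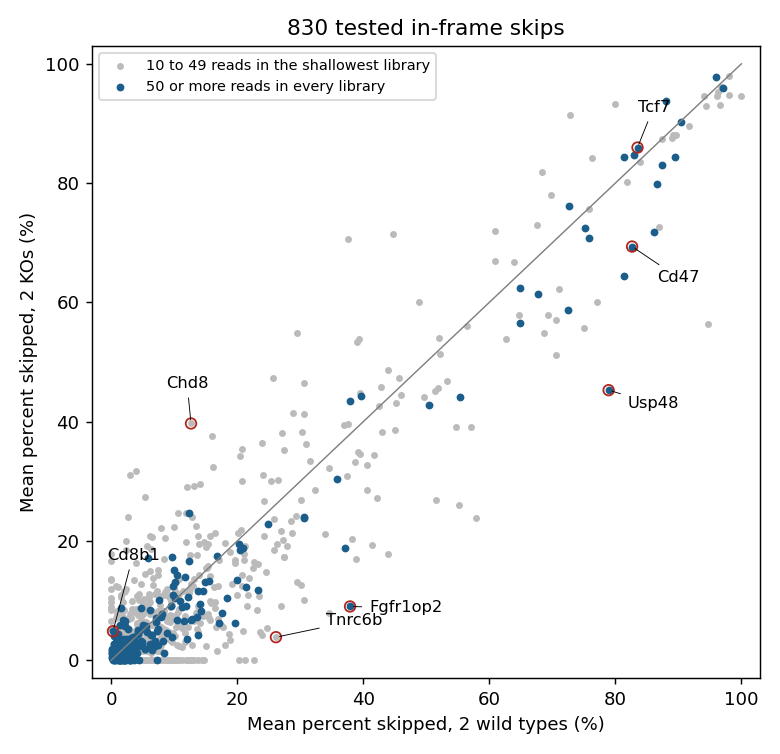
Mean percent skipped in the 2 wild types (x axis) against the 2 KOs (y axis) for the 830 tested members, with the diagonal of equal levels; blue points had at least 50 reads in every library and grey points 10 to 49 in the shallowest. Circled exons are described in the text, among them Cd8b1 near the origin, at 0.301% and 4.88%.

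Exon 2 of Cd8b1 was the only member called between genotypes, with more skipping in the KOs. Cd8b1 encodes the beta chain of the CD8 coreceptor, which is made from the double-positive stage on, and its exon 2 encodes most of the immunoglobulin-like domain that faces the MHC. Leaving the exon out removes 121 of 213 residues, from residue 15. The junction (mm9 chr6:71272893-71279691) had 6 and 6 reads in the wild types against 14 and 73 in the KOs, beside 1994.5, 1985.5, 1027.5 and 794 mean inclusion reads. The exon was thus skipped at 0.300% and 0.301% in the wild types, 1.34% in KO replicate 1 (exact 95% interval 0.736% to 2.24%) and 8.42% in KO replicate 2 (6.66% to 10.5%). Both KOs were above both wild types, and the KOs were far apart, with means of 0.301 ± 0.000958% and 4.88 ± 5.003% (SD, n = 2 each). All intervals and limits given here reflect counting error alone and treat each read as a separate molecule. Copies made by PCR are not separate molecules, so the intervals may be too narrow.

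The Cd8b1 exon passed edgeR's quasi-likelihood test over 2598 exons (log2 odds ratio 3.71, SE 0.78, adjusted p = 0.0364). It passed the junction usage test over 95139 junctions as well (adjusted p = 0.00412). That test uses the same skipping reads of the same libraries, so it is no separate support for the call. Of all exons tested, 0.077% were called, which is 2 exons, and of all junctions 0.0042%. The call rests on all libraries but KO replicate 1. The adjusted p was 0.807 without KO replicate 2, with a log2 odds ratio of 2.15, and 0.0867 and 0.147 without wild-type replicates 1 and 2, while it was 0.0404 without KO replicate 1. Over all alternatives it ran from 0.00335 to 0.9997 (DESeq2), with more skipping in the KOs in each. KO replicate 2 is also the library with the least Hnrnpl (39.9 RPKM), the lowest thymocyte marker sum (1811) and the highest thymic epithelium sum (8.84), and their part in the result was not tested. The gene itself had 1350, 1302, 1362 and 906 CPM (counts scaled to library size, with TMM), a difference that did not pass the gene test (log2 fold change -0.23, adjusted p = 0.689). The 90 nt exon 4 of the same gene was skipped at 1.34%, 3.08%, 1.502% and 1.51%, and the genotypes overlap there.

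No other member passed, and the numbers at an unadjusted p under 0.05 were near those of all exons. There were 22 members (2.65%) with more skipping in the KOs, against 2.62% of all exons, and 33 (3.98%) with less, against 3.31%. Of the 22, 10 had no skipping read in the wild types, and of the 33, 22 had none in the KOs. A member with few reads, all in 1 genotype, had to differ, since the total chose it. DESeq2 gave 7 and 14 members at that p and called none. The counts were 13 and 14 without KO replicate 2 and 23 and 26 without wild-type replicate 2, and 45 members had less skipping without wild-type replicate 1. Both KOs lay above both wild types in 102 members (12.3%), against 14.6% of all exons, and below them in 194 (23.4%), against 22.4%. Of those 194 members, 48 had no KO read, while 7 of the 102 had no wild-type read. Over all exons these were 146 of 582 and 24 of 380. The KO libraries were the shallower ones, and the part of depth in these counts was not tested.

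Less skipping in the KOs was seen in several well-read exons, none of which passed. Fgfr1op2 encodes a coiled-coil protein known as a fusion partner of FGFR1. Its 114 nt exon (38 of 253 residues, mm9 chr6:146541156-146541269) had 36 and 108 skipping reads in the wild types against 19 and 16 in the KOs, beside 87, 124, 145 and 231 inclusion reads. It was skipped at 29.3% and 46.6% in the wild types against 11.6% and 6.48% in the KOs, so all 4 values are apart by genotype (37.9 ± 12.2% against 9.03 ± 3.61%, SD, n = 2 each). The log2 odds ratio was -2.69 (SE 0.73), the smallest p among members with less skipping, with an adjusted p of 0.554 by edgeR.

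Usp48 encodes a deubiquitinase of the nucleus. Its 54 nt exon (18 of 1052 residues, mm9 chr4:137192849-137192902) was skipped at 81.0% and 76.9% in the wild types, 59.2% in KO replicate 1 and 31.4% in KO replicate 2, with 68, 100, 45 and 24 skipping reads. Both KOs were lower, with a gap of similar size between the KOs themselves (log2 odds ratio -2.18, SE 0.73, edgeR adjusted p = 0.732). Tnrc6b, a scaffold of microRNA silencing, had a 96 nt exon skipped at 28.3% and 24.1% against 5.06% and 2.70%, from 13, 19, 2 and 1 reads. The groups do not overlap, and the counts are small (log2 odds ratio -3.04, SE 1.11, edgeR adjusted p = 0.732).

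The variable exons 4 and 6 of Ptprc are members too, with exon 4 skipped at 100%, 89.3%, 54.5% and 58.1% and exon 6 at 88.9%, 83.4%, 71.0% and 72.5% in wild-type replicates 1 and 2 and KO replicates 1 and 2. Both KOs were lower for each exon, and neither passed (edgeR adjusted p = 0.732 for both). Exon 4 had 32, 25, 12 and 27 skipping reads beside 0, 3, 10 and 19.5 mean inclusion reads, so its levels rest on few reads. In the junction usage test the skips of exons 4 and 6 had an unadjusted p of 0.803 and 0.933. Junctions that pass over more than 1 exon are not counted in these levels.

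The other members with less skipping and the smallest p had no skipping read in the KOs. They are in 4833420G17Rik (3 and 16 reads in the wild types), Dnajc6 (11 and 5), the clathrin uncoating factor auxilin, Glmn (5 and 6), Rps7 (6 and 8), a ribosomal protein, Mbd4 (2 and 7), a DNA glycosylase, and a 159 nt exon of Ptprc (4 and 9). With 0 reads, the KO libraries allow up to 3.90% and 4.62% skipped for 4833420G17Rik, 8.33% and 8.82% for Dnajc6, and 1.38% and 1.04% for Rps7. The wild-type values of Rps7, 1.28% and 1.52%, are within or near those limits, as are the 9.26% of Dnajc6 in wild-type replicate 2 and the 3.21% of 4833420G17Rik in wild-type replicate 1.

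More skipping in the KOs came with few reads in the other named members. Chd8 encodes a chromatin remodeler that restrains Wnt signalling. Its 180 nt exon (60 of 2582 residues, mm9 chr14:52821819-52821998) had 4, 3, 18 and 6 skipping reads and was skipped at 16.7% and 8.70% in the wild types against 48.6% and 30.8% in the KOs. The groups do not overlap, and the test was not passed (log2 odds ratio 2.28, SE 0.99, edgeR adjusted p = 0.732). Atp2c1, a calcium pump of the Golgi, had 3, 0, 4 and 7 reads, and Dnttip1, a partner of terminal deoxynucleotidyl transferase, had 0, 1, 6 and 2. In Hnrnpm, a splicing regulator, the skip had 9 reads in KO replicate 2 and 0 in each of the others. Ppig, Dis3l2, Ube2v1, Stat4 and Dennd1a had no read in the wild types against 5 to 8 in the KOs, at an adjusted p of 0.732 each.

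**Figure D3:**
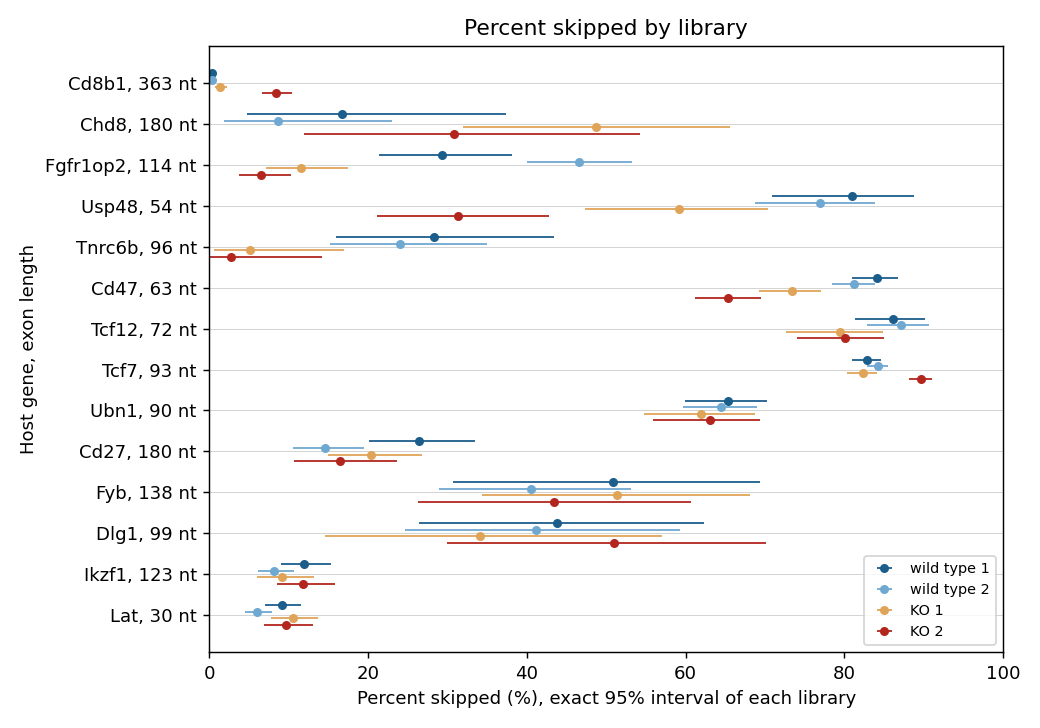
Percent skipped in each library for 14 exons described in the text, with the exact 95% interval of each library's reads. Fgfr1op2, Usp48, Tnrc6b and Cd47 were lower in both KOs, Chd8 and Cd8b1 higher, and of these only Cd8b1 passed the test between genotypes.

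Large shifts in level were mostly towards less skipping in the KOs, as in exons at large. Of the 305 well-read members, 11 (3.61%) had a KO mean over 10 percentage points below the wild types and 2 (0.656%) over 10 points above. Among all 857 such exons the shares were 3.5% and 0.933%, so the members were near the background. The libraries of the genotypes did not overlap in any of the 13, nor in 37 of the 38 such exons among all 857, and their adjusted p by edgeR ran from 0.554 to 0.9503. Leaving out 1 library gave 12 to 17 members below and 0 to 3 above, with 17 below without KO replicate 1 and without wild-type replicate 2, and 0 above without wild-type replicate 1. The median difference, KO minus wild type, was -0.52 points over the 305 members, -0.27 without wild-type replicate 2, and -0.28 over all 857 exons.

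Besides Fgfr1op2, Usp48, Cd47 and exon 6 of Ptprc, 7 members made up the 11 with less skipping. A 75 nt exon of Sp100, a nuclear body protein, was skipped at 39.7% and 34.4% in the wild types against 20% and 17.5% in the KOs. A 54 nt exon of Pecam1, the adhesion molecule CD31, was skipped at 18.4% and 20.8% against 9.58% and 3.05%. A 114 nt exon of the chromatin remodeler Atrx had 54.5% and 56.3% against 38.0% and 50.3%, and a 114 nt exon of the adaptor Stap1 had 25.8% and 20.9% against 10% and 13.4%. In each of these 4 exons both KOs were below both wild types. The same order held for Klhl24 (63 nt, 70.7% and 74.2% against 55.0% and 62.4%), for 1110054O05Rik (81 nt, 82.6% and 80.0% against 65.8% and 62.9%) and for Atp13a3 (81 nt, 17.5% and 16.6% against 9.17% and 3.33%). The exons with more skipping were a 111 nt exon of Stag1, a cohesin subunit, at 8.85% and 15.7% against 28.6% and 20.8%, and a 153 nt exon of Mcts1, a factor of translation reinitiation, at 3.08% and 8.75% against 12.7% and 21.7%.

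**Figure D4:**
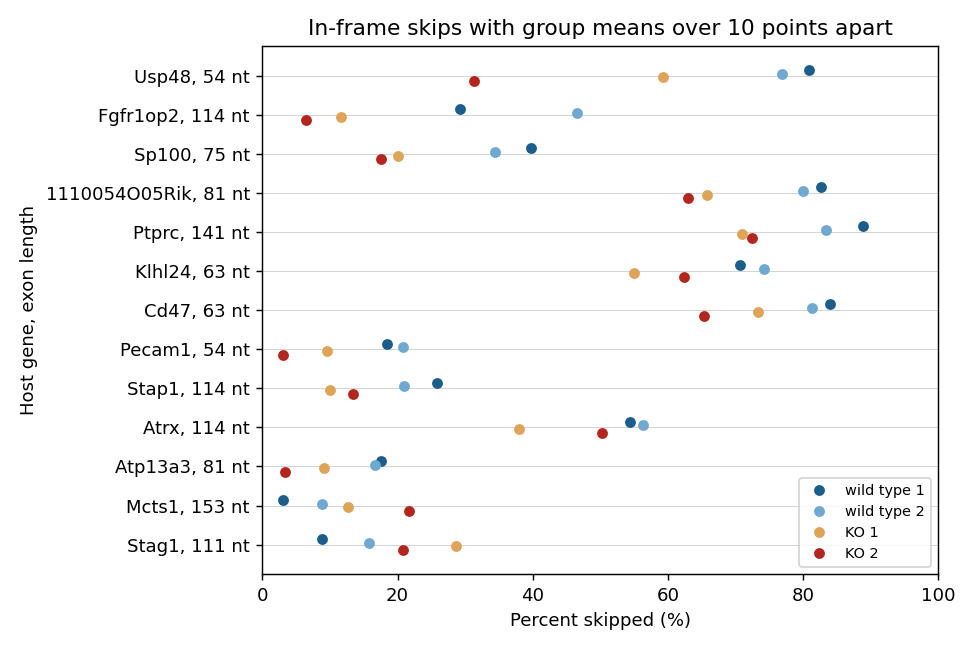
Percent skipped in each library (x axis) for the 13 well-read members whose group means lie over 10 percentage points apart. In 11 both KO points lie below both wild-type points, and in Mcts1 and Stag1 above; none passed the test.

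Genes of T cell receptor signalling held 33 members in 22 of 62 listed genes, and most were skipped rarely. All 33 could be tested, their median was 2.59% skipped, and Cd8b1 exon 2 was the member called. At an unadjusted p under 0.05, 2 had more and 2 less skipping in the KOs, and the genotypes did not overlap in 7 above and 8 below. Over all exons tested, those shares were 2.62% and 3.31% at that p, and 14.6% and 22.4% not overlapping. Exons of the receptor complex itself were skipped at low levels. The 132 nt exon 4 of Cd3g was skipped at 2.04%, 2.08%, 2.22% and 4.62%, and the 57 nt exon 3 of Cd247, the zeta chain, at 0.705%, 0.281%, 0.462% and 0.203%. In the coreceptor gene Cd4 the 237 nt exon 5 was skipped at 0.671%, 0.442%, 0.403% and 0%. Both KOs were above both wild types for Cd3g (edgeR adjusted p = 0.896) and below for Cd4, where the skip had 2, 2, 1 and 0 reads, while the genotypes overlap for Cd247.

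Some adaptor and costimulatory genes reached higher levels. Others in the list did not, with 1.75% skipped over the 4 libraries for Cd2, 2.19% for Cd48, 3.50% for the adaptor Skap1 and 5.40% for the 132 nt exon of Cd27. Fyb, an adaptor that links the receptor to integrins, skipped its 138 nt exon at 50.9%, 40.6%, 51.4% and 43.5%, and Dlg1, a scaffold of the immune synapse, its 99 nt exon at 43.8%, 41.2%, 34.1% and 50.98%. The 180 nt exon 3 of Cd27, a costimulatory receptor of the TNF receptor family, was skipped at 26.4%, 14.6%, 20.4% and 16.5%. In Lat, the membrane adaptor phosphorylated after receptor triggering, the 30 nt exon was skipped at 9.10%, 6.05%, 10.5% and 9.65%. The genotypes overlap in Fyb, Dlg1 and Cd27, and in Lat both KOs were above both wild types by less than the wild types differed from each other. Themis, a regulator of positive selection, gave 3 members, of which the 153 nt exon 5, which holds the stop codon, was skipped at 16.7%, 23.4%, 14.7% and 12.2%, lower in both KOs (edgeR adjusted p = 0.924).

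Lymphoid transcription factors varied in level. Ikzf1 encodes Ikaros, whose isoforms differ by exons, and its exons of 123 and 135 nt were skipped at 8.21% to 12.0% and at 8.23% to 13.1%, overlapping between the genotypes for the 123 nt exon and lower in both KOs for the other (edgeR adjusted p = 0.965). The 54 nt exon of Ikzf3, or Aiolos, was skipped at 9.18%, 10.96%, 11.8% and 14.5%, higher in both KOs (edgeR adjusted p = 0.965). Lef1, the relative of TCF-1, skipped an 84 nt exon at 2.48%, 1.37%, 3.80% and 8.21%, with both KOs above both wild types (log2 odds ratio 1.77, SE 0.95, edgeR adjusted p = 0.732). Satb1, a chromatin organizer of thymocytes, skipped its 213 nt exon at 0.206%, 0.308%, 0.638% and 0.958%, from 4, 8, 11 and 12 reads (log2 odds ratio 1.57, SE 0.73, edgeR adjusted p = 0.732). The adaptor Skap1 skipped an 84 nt exon at 1.31%, 3.26%, 1.98% and 11.1%, where KO replicate 2 stood above the other 3.

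The remaining host lists held members with no call. Chromatin regulators had 37 members in 25 of 101 genes, with a median of 18.6% skipped in the 31 tested, and both KOs were above both wild types in 3 and below in 10 of these, against 14.6% and 22.4% of all exons. Splicing and RNA-binding genes had 16 members in 15 of 114 genes, with a median of 5.40% skipped. Replication, repair and cell cycle genes had 18 in 16 of 95, with a median of 2.73%, and actin, microtubule and adhesion genes 28 in 21 of 95, with a median of 3.09%. These 4 lists had 31, 14, 14 and 15 members tested in that order. At an unadjusted p under 0.05 they had 4 members with more and 3 with less skipping in the KOs, against 2.62% and 3.31% of all exons.

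The host genes were well expressed, and the share of them with a low p between genotypes was near the background. Their median was 10.8 RPKM, against 4.08 for all genes tested. The rule asked for a minimum of skipping reads, so it favoured genes with more reads, and a higher median follows from it. Of 996 host genes tested 0 passed edgeR's test, against 0.00728% of all genes, and 91 (9.14%) had an unadjusted p under 0.05, against 9.89% of all genes. Of the 91, 49 were higher and 42 lower in the KOs. The median log2 fold change was -0.02 for the hosts and 0.01 for all genes. The targeted gene Hnrnpl itself did not pass the edgeR gene test (log2 fold change -1.30, adjusted p = 0.486). A gene that did not pass may thus still differ. DESeq2 called 6 host genes among 108 of 13732 genes. The edgeR calls also changed when KO replicate 1 was left out, and the cause was not tested. In bulk samples fewer cells of a type and less RNA per cell cannot be told apart. In the junction test, 642 members entered and 51 (7.94%) had an unadjusted p under 0.05, against 2.54% of all junctions, with Cd8b1 alone called. All junctions include known ones, while the members are putative and chosen by their summed skipping reads, so these shares are not of like junctions. In the exon test the shares of members were near those of all exons, at 2.65% and 3.98% against 2.62% and 3.31%.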

How the data were processed

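RNA of total thymocytes from 2 wild-type and 2 KO mice had been depleted of ribosomal RNA and sequenced on 2 slides, per the labels' protocols. The authors deposited, for each library, raw read counts per RefSeq transcript with RPKM values, and raw read counts per exon-exon junction with its status. Per the file headers, alignments were counted from a mapping quality of 10 on, and the authors' RPKM values are scaled by transcript length and mapped reads. The headers state 99782558 and 122619310 mapped reads for the wild types, against 69061265 and 75485061 for the KOs. The build is mm9, per the submitters' processing notes; the aligner is not given in the sources used here, nor is strand handling, so overlapping genes on opposite strands may share reads.

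Junctions were joined to known exons by their ends. The exon test was edgeR 4.0.16 (R 4.3.3), a robust quasi-likelihood fit with a term per library, skipping, and skipping in KO, over all exons that 1 junction skips, with Benjamini-Hochberg adjustment and a threshold of 0.05. Inclusion was rounded to whole reads for the fit. Junction usage was tested with diffSpliceDGE, for junctions with at least 10 reads in genes with at least 2 of them, and genes with TMM scaling and 1 transcript per gene. The tests were checked on simulated data. Percent skipped was computed from junction counts, with exact Clopper-Pearson intervals at 95% and a limit of 3 reads for a count of 0. Exon sequence, coding place and listed skips came from GENCODE M21 on GRCm38. Alternatives used DESeq2 1.42.0, limma 3.58.1, other filters and inclusion counts, and each library left out.

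The members and the gene lists were chosen with earlier results of these data known. Members named are the 10 with the smallest p in each direction of the exon test, the 10 with the most skipping reads, the 10 with the highest percent skipped (ties by reads), any member called, and those in the T cell list; the other members were named after their values were seen. With 2 samples a group, p-values measure the spread between these samples only. The fits share that spread in part over all features tested, so the p of an exon does not rest on its own reads alone.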

Additional observations from a re-analysis of the deposited data

How the results depend on the processing

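The number of called members was 1 in the exon test and 0 with DESeq2, with at least 20 reads in every library, with the downstream inclusion junction alone and without robust moderation, and 0 to 1 with a library left out. Members at an unadjusted p under 0.05 numbered 22 with more and 33 with less skipping in the KOs. They were 7 and 14 with DESeq2, 12 and 21 with at least 20 reads, and 13 to 23 and 14 to 45 with a library left out. In the junction test the 1 call became 0 with limma-voom and 0 to 1 with a library left out. The host genes called were 0, and 6 with DESeq2 (of 108 genes called), 4 with no filter (of 62) and 0 to 38 with a library left out (of 392 for the highest). The causes were not tested.

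The replicate numbers are shared by the genotypes in the labels, and nothing says that a number marks a shared animal or batch. The deviations of same-numbered samples correlated at 0.259 over 13696 genes, from 2 pairs only. With the replicate number as a block, the exon test called 1 member, with 16 and 22 at an unadjusted p under 0.05, the junction test called 1 and the gene test 5 host genes of 116 genes called.

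The set itself depends on its minimum. It held 645 skips at 10 or more reads, 1832 at 3 or more and 584 with a read in each library. With other known exon ends allowed between the ends of the junction, an alternative chosen after seeing the data like the leaving out of a library in the count of large shifts, it held 1198. The median percent skipped was 6.30%, 7.02% with the upstream inclusion junction alone, 6.97% with the downstream one alone, and 5.83% to 6.53% with a library left out. The 20 members named for their p were chosen for it, and 12 of them have no skipping read in 1 genotype, so that an unchanged direction under the alternatives is no sign of stability. Of 312 alternatives for the level of 52 named members, 25 moved it by over 1 SD of the libraries. The 5 to 9 reads behind many members leave their levels with wide counting error.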
